A study of Arabidopsis thaliana with 3 samples.

Results

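Of the 3552 regions bound by the complex SEP3-AG(IAP1) in the Arabidopsis genome, 722 (20.3%) had their midpoint in an intron of a protein-coding gene. A region was counted here when its midpoint lay between the start and the end of a protein-coding gene and in no exon of any transcript of any protein-coding gene. The regions come from seq-DAP-seq, in which a pair of tagged proteins made together in vitro is purified as a complex and incubated with sheared genomic DNA, and the bound fragments are sequenced. The complex, labelled SEP3-AG(API-I), joined SEP3 to a Myc-tagged AG whose I domain was replaced by that of AP1, and the DNA came from Arabidopsis thaliana plants grown in long days. All samples belong to this single group of 3 replicates, which the authors had already combined in 1 list of regions, each 400 bp wide. The list gives positions only, with no height or read count, so neither depth nor the spread between replicates can be read from it. The study's supplement gives read and peak numbers per replicate and correlations between replicates, which were not used here. The tests and intervals below cover counting error over regions, and they take the regions as independent.

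MADS transcription factors (TFs) of the MIKC type control flowering time, floral meristem identity and floral organ identity. They bind DNA as dimers at the CArG box, an A- and T-rich stretch between CC and GG. In plants, introns can carry regulatory DNA, and the best known case among floral genes is the large second intron of AG, which holds binding sites for LEAFY and WUSCHEL and is needed for the normal pattern of AG expression. DNA in seq-DAP-seq is stripped of proteins, so that an intron can be bound whether or not it is accessible in the plant.

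A bound region lay in an intron of 8 MIKC MADS genes, and the best-scoring site of each is shown first because these genes code for relatives or partners of the complex itself. Each site was found with a matrix of 16 bp fitted to the regions of the other chromosomes, and the matrix score is a log2 ratio to the base composition of the regions, in bits. The sequences are read 5′ to 3′ on the strand of the gene from the RefSeq copy of the TAIR10 genome. Capitals mark the 10 bp core that stands at the place of the CArG box.
AG, intron 2, chr4:10386486-10386585: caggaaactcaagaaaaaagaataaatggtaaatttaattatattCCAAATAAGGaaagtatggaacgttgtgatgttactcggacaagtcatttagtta
AGL17, intron 1, chr2:9619044-9619079: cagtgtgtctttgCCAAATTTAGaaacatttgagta
AGL24, intron 2, chr4:12672894-12672929: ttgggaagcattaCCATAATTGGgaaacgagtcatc
AGL19, intron 2, chr4:12026598-12026633: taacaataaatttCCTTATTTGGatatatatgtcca
FUL, intron 2, chr5:24505040-24505075: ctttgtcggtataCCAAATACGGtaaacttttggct
AGL14, intron 2, chr4:7144218-7144253: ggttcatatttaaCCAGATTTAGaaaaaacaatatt
CAL, best site in exon 1, chr1:9103343-9103378: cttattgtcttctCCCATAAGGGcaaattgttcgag
SEP3, intron 1, chr1:8595604-8595639: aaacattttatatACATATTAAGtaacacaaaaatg

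A further set is shown because it holds the 8 highest matrix scores of all the intron peaks, and it shows the form of the site at its strongest.
AT1G80690, intron 2, chr1:30329594-30329629: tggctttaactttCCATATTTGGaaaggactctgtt
LYK3, intron 2, chr1:19298081-19298116: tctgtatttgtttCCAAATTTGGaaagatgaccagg
CYP704A2, intron 1, chr2:18753627-18753662: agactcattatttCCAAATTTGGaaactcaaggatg
sks17, intron 1, chr5:26723140-26723175: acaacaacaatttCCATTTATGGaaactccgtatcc
AT1G09480, intron 2, chr1:3059121-3059156: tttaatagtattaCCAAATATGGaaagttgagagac
AT1G09580, intron 1, chr1:3105010-3105045: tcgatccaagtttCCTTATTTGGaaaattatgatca
ZFN2, intron 3, chr2:13967557-13967592: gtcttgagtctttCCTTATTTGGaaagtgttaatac
TTG2, intron 1, chr2:15645188-15645223: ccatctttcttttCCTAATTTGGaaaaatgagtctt

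All 8 of these held a canonical box, here CC and GG with 6 bases of A or T between them, and in each the first 2 of the 3 bases before the box were TT and the last 2 of the 3 bases after it AA. Their scores ran from 16.91 to 18.32 bits. LYK3 codes for a receptor kinase with LysM domains, CYP704A2 for a cytochrome P450, sks17 for a protein similar to SKU5, and TTG2 for a WRKY TF of trichome and seed coat development. The matrix favours such flanks, so that their presence in the highest scores follows from the way the scores were made. The counts of boxes by flank given further on use the letters and no score, but the flanks were first seen in these same peaks.

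The intron peaks were spread thinly over genes. Of the 722, 720 lay in an intron of a transcript model, in 719 introns of 702 genes, and 2 lay inside the annotated spans of AT1G17860 and SOBIR1 (AT2G31880) but outside every transcript model. These 2 were named after their positions were seen. An intron peak was found in 3.23% of the 21743 protein-coding genes with introns and in 0.624% of the 115134 introns. A single intron peak was found in 684 genes, 2 in 18 genes and 3 or more in 0 genes. On the 5 chromosomes there were 211, 117, 131, 107 and 156 intron peaks, or 36.8 to 43.3 per Mb of intron.

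In 17 of the 18 genes with 2 intron peaks, the peaks lay in different introns. The exception was AT1G76360, where both midpoints fell in intron 2, of 1198 bp, with their starts 390 bp apart. Over the 18 genes the starts were 334 to 5763 bp apart, with a median of 1287 bp, and 8 of them had a peak in intron 1. One of these was NRT1.5, a nitrate transporter gene, with peaks in introns 1 and 2 whose best sites scored 9.90 and 10.7 bits. These genes were picked out after their values were seen.

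Introns were bound more densely than the pooled sequence outside them. That pool joins exons, sequence upstream of genes and the remaining intergenic sequence, and introns were not compared with each of these separately. Whether the excess is particular to introns is therefore not shown, and the difference in density was not tested. Intron sequence makes up 18.1 Mb, or 15.2% of the 119.1 Mb genome, and held 39.9 intron peaks per Mb, against 28.01 other peaks per Mb outside it. Few regions lay whole inside their intron. The median over all introns of the annotation is 99 bp. Of the 720 peaks in transcript introns, 81 (11.25%) had all 400 bp inside the intron, and the median peak had 255 bp of intron sequence. The introns that held them ran from 55 to 11356 bp, with a median over peaks of 273.5 bp. The midpoints lay a median of 57 bp from the nearer end of the intron.

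Peak density was highest in the first introns and fell with rank from the second intron on. First introns held 58.5 peaks per Mb (290 peaks, exact Poisson 95% interval 52.0 to 65.7), second introns 52.5 (152 peaks, 44.5 to 61.5), introns of rank 3 32.6 (67 peaks, 25.3 to 41.4), introns of rank 4 29.4 (45 peaks, 21.4 to 39.3), and introns of rank 5 and later 24.9 (166 peaks, 21.3 to 29.0). The intervals of first and second introns overlap, and so do those of ranks 3, 4 and later. First introns as a class had 1.79 times the density of all later introns, 58.5 against 32.7 peaks per Mb (430 peaks, 29.7 to 35.97).

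Density also increased with the length of the intron. Introns under 100 bp held 26.6 peaks per Mb (130 peaks, 22.2 to 31.6), those of 100 to under 200 bp 34.6 (153 peaks), those of 200 to under 400 bp 47.1 (200 peaks), those of 400 to under 1000 bp 52.4 (186 peaks, 45.1 to 60.5) and those of 1000 bp or more 51.8 (51 peaks, 38.5 to 68.1). The classes from 200 bp upwards do not differ beyond their intervals. Introns before the coding start held 59.1 peaks per Mb (63 peaks, 45.4 to 75.7), those within the coding part 38.9 (653 peaks, 35.97 to 42) and those after the coding end 16.7 (4 peaks, 4.54 to 42.7). The last 4 lay in AGO1, the core protein of microRNA silencing, in bZIP6, in the chitinase gene ChiC and in AT2G25570. They are named here because the count is small. Introns before the coding start had a median of 189 bp, against 98 bp within the coding part. At like length the intervals of these 2 kinds overlapped in every class, with higher densities before the coding start below 1000 bp. From 400 to under 1000 bp the densities were 67.85 (44.7 to 98.7) and 51.3 (43.6 to 59.9). At 1000 bp or more they were 34.6 (11.25 to 80.8) and 57.9 (42.4 to 77.3). Rank was not matched.

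**Figure D1:**
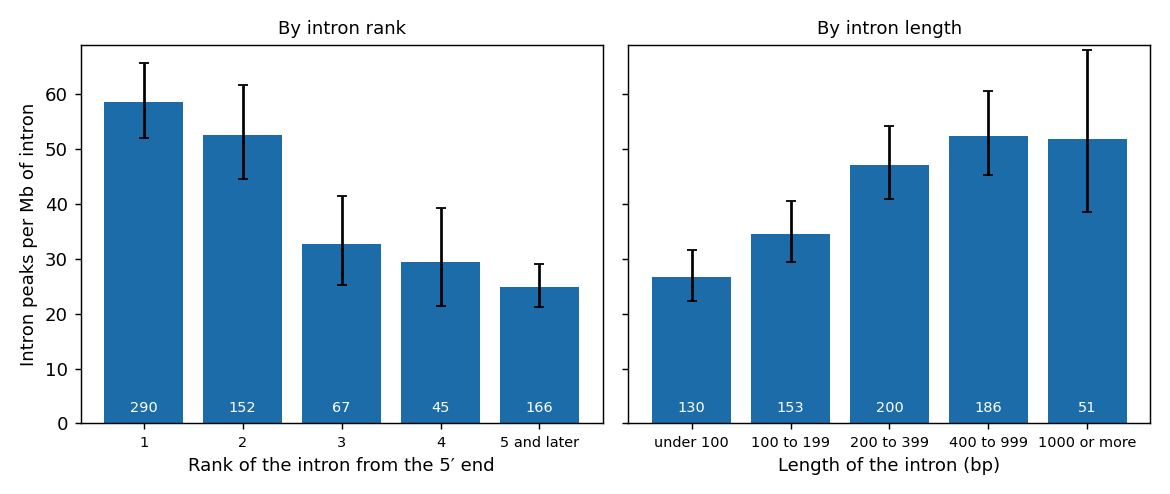
Intron peaks per Mb of intron sequence (vertical axis) by rank of the intron from the 5′ end (left) and by intron length in bp (right), with bars for the density, lines for exact Poisson 95% intervals and the number of peaks at the foot of each bar. Density was 58.5 peaks per Mb in first introns and 24.9 in introns of rank 5 and later, and 26.6 in introns under 100 bp and 51.8 in those of 1000 bp or more.

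First and later introns were also compared at like length, with no test of whether the difference varied. Under 100 bp the intervals overlapped, with 31.85 peaks per Mb in first introns (19 peaks, 19.2 to 49.7) and 25.85 in later introns (111 peaks, 21.3 to 31.1). From 100 to under 200 bp the densities were 52.6 (41 peaks, 37.8 to 71.4) and 30.7 (112 peaks, 25.3 to 36.95). Among introns of 200 to under 400 bp, first introns held 67.0 peaks per Mb (94 peaks, 54.1 to 82.0), against 37.3 in later introns (106 peaks, 30.6 to 45.2). From 400 to under 1000 bp the densities were 66.1 (110 peaks, 54.35 to 79.7) and 40.3 (76 peaks, 31.75 to 50.4). Among introns of 1000 bp or more the densities were 50.8 in first introns (26 peaks, 33.2 to 74.5) and 52.8 in later introns (25 peaks, 34.2 to 77.9). In these long introns, 19 peaks lay in the 5′ part, 19 in the middle part and 13 in the 3′ part, when each intron is cut in 3 equal parts.

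First introns lie close to gene starts and are richer in A and T, so densities were also compared within classes of both measures, which were added after the data were seen. Between 500 and under 1000 bp from the gene start, first introns held 74.5 peaks per Mb (149 peaks, 63.0 to 87.5) and later introns 44.2 (91 peaks, 35.6 to 54.2). Between 1000 and under 2000 bp the densities were 70.2 (56 peaks, 53.0 to 91.1) and 32.8 (162 peaks, 27.95 to 38.3). Within 500 bp the intervals overlapped, with 41.4 in first introns (83 peaks) and 31.8 in later introns (9 peaks), and beyond 2000 bp there were only 2 peaks in first introns. At 32 to under 36% GC, first introns held 83.1 peaks per Mb (69.2 to 98.9), against 46.8 in later introns (39.7 to 54.9). Below 28% GC the values were 58.6 (37.2 to 87.9) and 52.1 (31.4 to 81.4), and at 28 to under 32% GC they were 72.9 (54.4 to 95.6) and 66.0 (49.6 to 86.1). At 36% GC or more they were 38.2 (30.7 to 46.98) and 23.5 (20.4 to 27.0). The excess in first introns was larger than the counting error at 32% GC and above but not below it.

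**Figure D2:**
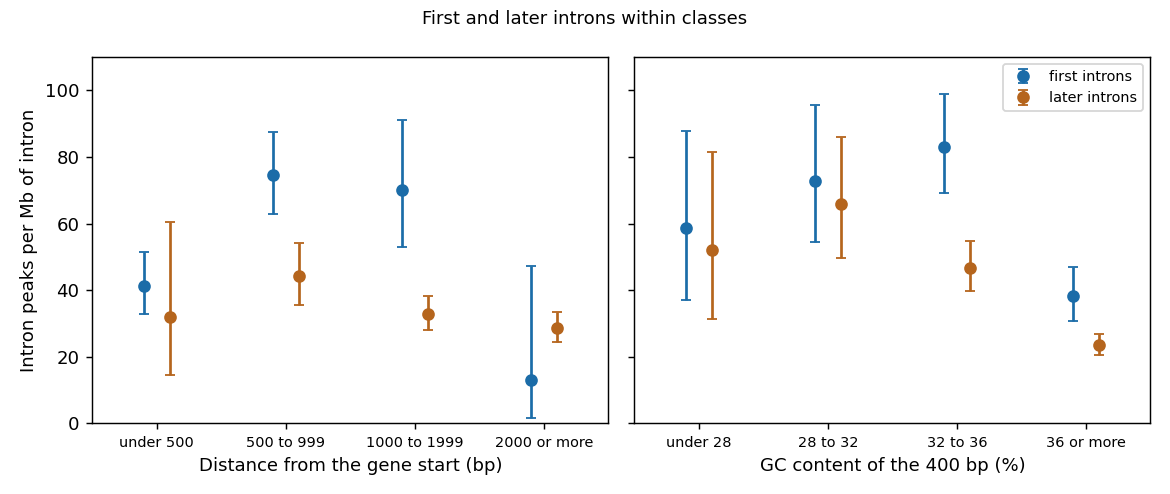
Intron peaks per Mb of intron sequence for first and later introns (points, with exact Poisson 95% intervals) by distance of the base from the gene start in bp (left) and by GC content of the surrounding 400 bp in percent (right). The intervals of first and later introns are apart from 500 to under 2000 bp and at 32% GC and above, and overlap elsewhere.

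The midpoints of the intron peaks lay a median of 1090 bp from the gene start, with 92 within 500 bp and 332 within 1000 bp. Of these peaks, 43 were also in the 1000 bp before the start of another protein-coding gene. Alternative mRNA starts lay within 1000 bp downstream of 27 (3.75%), while such stretches take up 3.10% of intron bases. Of genes with an intron peak, 59 of 702 (8.41%) also had a peak within 1000 bp upstream. Of the other genes with introns, 946 of 21041 (4.50%) did, and the difference was not tested.

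Among the MIKC MADS genes, 8 of 39 (20.5%) held an intron peak, against 3.23% of all genes with introns. MIKC genes also have long introns, with a median of 1803 bp of intron sequence per gene, against 629 bp over all genes with introns. Per length, they had 102 intron peaks per Mb (8 peaks, 44.2 to 202), against 39.3 over all genes (36.5 to 42.3) when bases shared by overlapping genes are counted for each. Of introns of 1000 bp or more, 5 of 16 in MIKC genes (31.25%) held a peak, against 7.55% of the 662 such introns over all genes. These values describe a list chosen with earlier results of these data known. All 8 MIKC peaks lay in intron 1 or 2, while the 39.3 covers introns of all ranks and lengths. First and second introns of 400 bp or more held 62.5 and 58.85 peaks per Mb over all genes. Both values lie inside the interval of the MIKC genes, and the difference was not tested.

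AG (AT4G18960), the C class gene for stamen and carpel identity, had its peak at chr4:10386344-10386743, in the second of 8 introns, whose 2835 bp rank it 4 among introns with a peak by length. The midpoint lay 2397 bp from the 5′ end of the intron and 437 bp from the 3′ end. The canonical box shown above lay 8 bp from the centre of the peak and scored 14.81 bits. A second peak, not in an intron, covered the start of the gene.

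The other MIKC genes bound in intron 2 were AGL24, AGL19, AGL14 and FUL. AGL24 (AT4G24540), which promotes flowering, had a peak at chr4:12672821-12673220, in an intron of 714 bp. It held 4 matrix sites, and the best, at 15.12 bits, lay 109 bp from the centre. AGL19 (AT4G22950), a flowering promoter, had a peak at chr4:12026422-12026821 in an intron of 1793 bp, with a canonical box 6 bp from the centre (14.65 bits). AGL14 (AT4G11880), known from root development, had a peak at chr4:7144012-7144411 in an intron of 1940 bp, with a site of 11.5 bits and no canonical box. AGL19 and AGL14 belong to the SOC1 clade, and both also had a peak over the gene start. FUL (AT5G60910), which acts in meristem identity and fruit valves, had a peak at chr5:24504873-24505272 in an intron of 365 bp, with a site of 12.37 bits 15 bp from the centre and no canonical box. A short exon used in only some transcripts of FUL sets this rank, and in the transcript with the longest coding sequence the peak lay in intron 1, of 893 bp.

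The other 3 MIKC genes were bound in intron 1. AGL17 (AT2G22630), which promotes flowering, had the best site of the 8 genes, at 15.69 bits and 3 bp from the centre of a peak at chr2:9618865-9619264, in an intron of 1139 bp. CAL (AT1G26310), the close paralogue of AP1 in floral meristem identity, had a peak at chr1:9103101-9103500 whose midpoint lay only 24 bp inside an intron of 1055 bp. Its best site, of 9.61 bits, lay in exon 1 and not in the intron. SEP3 (AT1G24260), the gene of a partner in the complex, had a peak at chr1:8595368-8595767 in an intron of 786 bp. Its best site scored 7.60 bits, below the threshold of 7.81 bits that gives 1 site per 2000 bp of genome. Of the 8 peaks, 3 held a canonical box and 5 lay whole inside the intron.

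**Figure D3:**
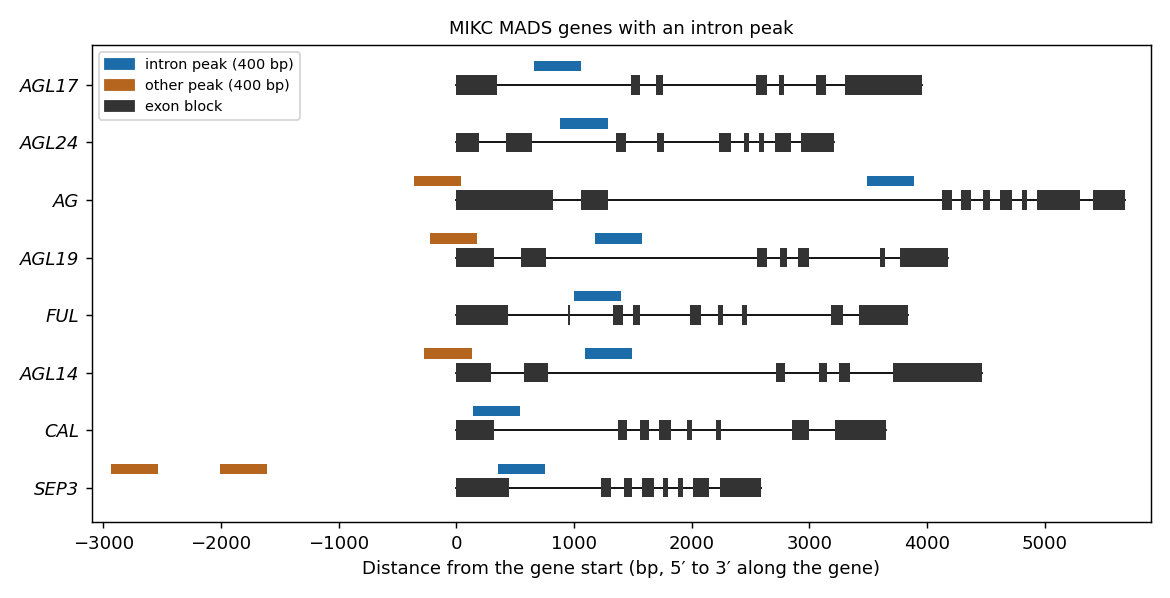
Exon blocks (dark boxes), intron peaks (blue) and other peaks of the list (brown), each 400 bp, along the 8 MIKC MADS genes with an intron peak, by distance from the gene start in bp, 5′ to 3′, with peaks up to 3000 bp upstream drawn. The peaks of AGL24, AG, AGL19, FUL and AGL14 stand in intron 2 and those of AGL17, CAL and SEP3 in intron 1, and AG, AGL19 and AGL14 have a further peak at the gene start.

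Other MIKC genes with long introns had no intron peak. FLC, the repressor of flowering whose first intron carries its cold-responsive elements, has an intron of 3493 bp without one. The same held for MAF5 (longest intron 2411 bp), ANR1 (2134 bp), SHP2 (2056 bp), MAF3 (1959 bp) and AGL79 (1709 bp). It also held for STK (1577 bp), MAF4 (1300 bp), AGL42 (1105 bp) and SOC1 (1002 bp). SHP2 and STK are the AG relatives of fruit and ovule development. As the list holds only regions called in the authors' pipeline, weaker binding in these introns cannot be seen.

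Of the KNOX and BELL homeobox genes, whose proteins pair with each other and act in meristems and other tissues, 3 of 22 (13.6%) had an intron peak. KNAT2 had one at chr1:26578872-26579271, 1577 bp into intron 3, of 4162 bp, the second longest intron with a peak. It held 1 canonical box, but its best site, of 9.40 bits, was another, with the core CTTAATTAAG. The peaks of KNAT6 and BLH6 lay in intron 1, of 138 and 191 bp, with best sites of 9.02 and 7.04 bits, the second of which is below the threshold. Of 34 flower development genes with introns, 2 (5.88%) had an intron peak, YAB3, a YABBY gene of abaxial cell fate, with a site of 11.37 bits, and BOP2, a gene of leaf and organ boundaries, with 10.59 bits. Of 31 flowering time genes, 1 (3.23%) did, the AP2-like repressor TOE1, with 10.86 bits. None of 19 photosynthesis genes did. The intervals of these lists per Mb of intron all include the 39.3 of all genes.

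The 5 longest introns with a peak include those of KNAT2 and AG, whose peaks each held a canonical box, with best sites of 9.40 and 14.81 bits. The longest, intron 2 of AT2G34100, of 11356 bp and before the coding start, had its peak 5683 bp from its 5′ end, at 24.5% GC and with a best site of 9.66 bits. AT4G36170 had a peak in an intron of 3885 bp (10.06 bits), and DMR6, a 2-oxoglutarate oxygenase gene of disease susceptibility, in an intron of 2251 bp (11.18 bits). The peaks of AT2G34100, AT4G36170 and DMR6 held no canonical box. Over the 51 peaks in introns of 1000 bp or more the best score had a median of 11.14 bits, against 10.79 bits over all intron peaks.

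Canonical boxes did not differ in share between intron peaks and other peaks beyond the counting error. A box was found in 120 of 722 intron peaks (16.6%, Clopper-Pearson 95% interval 14.0 to 19.5) and in 447 of 2830 other peaks (15.8%, 14.5 to 17.2). The difference was 0.825 percentage points (two-sided Fisher's exact test, p = 0.6085, adjusted p = 0.839 over 9 tests). A matrix site was found in 619 intron peaks (85.7%, 83.0 to 88.2) and 2386 other peaks (84.3%, 82.9 to 85.6; exact p = 0.356, adjusted p = 0.675). At least 2 sites were found in 206 intron peaks (28.5%) and 859 other peaks (30.4%, exact p = 0.363, adjusted p = 0.675). In windows of 400 bp centred in introns outside peaks, 2.23% held a canonical box and 16.5% a matrix site.

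The GC content of intron peaks differed from that of other peaks. Their median GC content was 35.25%, against 31.6% in other peaks, and 169 intron peaks (23.4%) lay under the median of all peaks, against 1602 other peaks (56.6%, two-sided Fisher's exact test, p = 2.20e-59, adjusted p = 1.98e-58). The intron windows outside peaks had a median of 37.0%. GC content moved with the length of the intron and with how much of the 400 bp was intronic. Peaks in introns of 1000 bp or more, with a median of 400 intronic bp, had a median GC content of 29.25%, below that of the other peaks. Peaks in introns under 200 bp, with a median of 165 intronic bp, had 37.25%. The part of the exon sequence in the difference was not tested. The share with a canonical box did not differ beyond the intervals within any GC class. At 36% GC or more it was 18.6% in intron peaks (14.3 to 23.5), 19.7% in other peaks (16.6 to 23.1) and 2.16% in intron windows. Below 28% GC it was 14.3% (5.43 to 28.5), 13.6% (11.01 to 16.5) and 1.95% in these 3 sets.

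**Figure D4:**
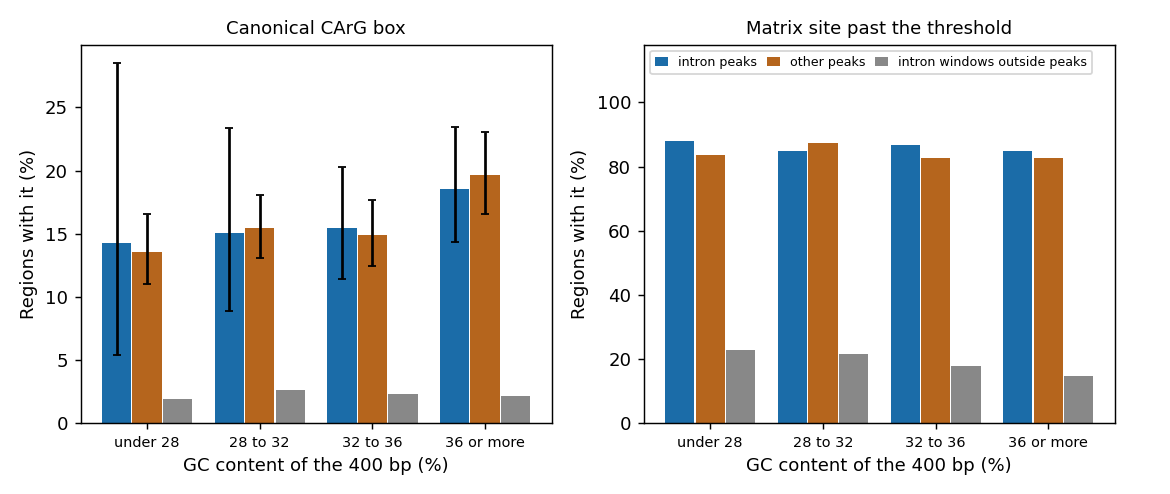
Share of regions, in percent, with a canonical CArG box (left, with Clopper-Pearson 95% intervals for the peaks) and with a matrix site past the threshold (right), by GC content of the 400 bp in percent, for intron peaks, other peaks and intron windows outside peaks. The intervals of intron peaks and other peaks overlap in every class on the left, with 18.6% and 19.7% holding a canonical box at 36% GC or more, where intron windows had 2.16%.

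Sites lay at the centre of intron peaks, as in the other peaks. The best site lay within 25 bp of the centre in 525 intron peaks (72.7%) and 1902 other peaks (67.2%), and the best score had a median of 10.8 bits (quartiles 8.86 and 13.02) against 10.7 bits. Of the 125 canonical boxes in intron peaks, 92 (73.6%) lay within 25 bp of the centre, at a median of 16 bp, against 62.1% and 19 bp in other peaks. These differences in position were not tested. Intron peaks made up 4 of the 10 highest-scoring peaks of the whole list, 30 of the highest 100 and 107 of the highest 500. They make up 20.3% of the list. These shares were not tested, and each chromosome was scored with its own matrix.

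**Figure D5:**
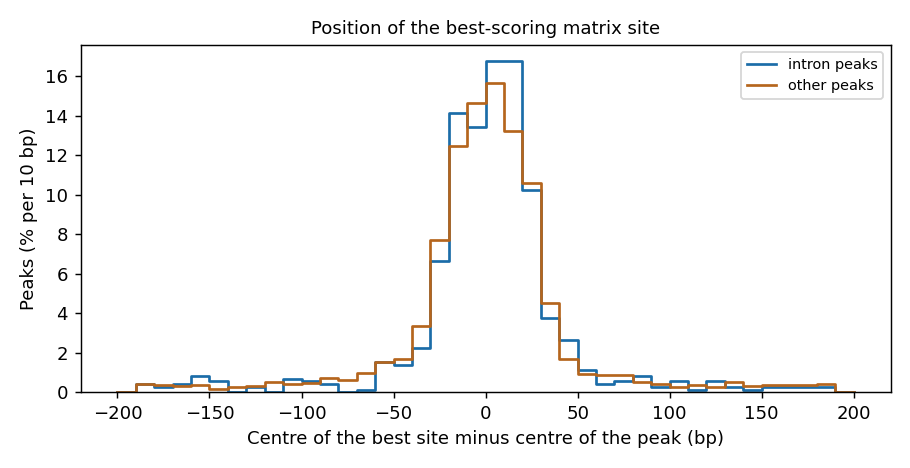
Share of peaks, in percent per 10 bp, by the distance of the best-scoring matrix site from the peak centre in bp, along the chromosome, for intron peaks and other peaks. Both sets are concentrated around the centre, with 72.7% of intron peaks and 67.2% of other peaks within 25 bp.

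The midpoint rule puts the centre of each peak in an intron, and best sites lie near the centre, so the place of the best site is given as a description. The best site lay whole in an intron in 630 of 720 peaks (87.5%), across an exon edge in 54 (7.50%) and in an exon in 35 (4.86%). Of all positions within 25 bp of the centre 93.0% were intronic and 5.32% crossed an edge. Of the 463 best sites past the threshold in that stretch, 425 (91.8%) were intronic and 35 (7.56%) crossed an edge. Sites past the threshold that crossed an edge did so at the 5′ end of the intron in 22 peaks and at the 3′ end in 24.

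The bases next to the canonical box went with its presence in the list. In all introns there were 1031 canonical boxes lying whole in intron sequence, of which 112 (10.9%, 9.03 to 12.9) lay in an intron peak and 3 in another peak. Counted by the letters TT at the first 2 of the 3 bases before the box and AA at the last 2 of the 3 bases after it, 34 boxes had both and 27 of them (79.4%, 62.1 to 91.3) lay in an intron peak. With one of the flanks, 55 of 255 (21.6%, 16.7 to 27.1) did, and with neither, 30 of 742 (4.04%, 2.74 to 5.72). The 3 intervals do not overlap. These counts were made after the sites had been seen, in the same peaks to which the matrix was fitted. They are a description and not an independent check of the flanks.

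The 6 bases inside the box varied as well. Of 36 different canonical boxes lying whole in intron sequence, taking both strands together, 10 had no such copy in an intron peak. One of the 10, CCTAATTAGG, was present in the MBD9 peak across the edge of the intron. The boxes named here were picked after their counts were seen. CCAAATAAGG, the box of AG, lay in an intron peak in 10 of its 33 intron copies (30.3%, 15.6 to 48.7), and CCATTTTAGG in 9 of 30 (30%, 14.7 to 49.4). The most common, CCAAAAAAGG, did so in 15 of 126 (11.9%, 6.82 to 18.9), an interval that overlaps both. CCAAATTTGG, found at LYK3 and CYP704A2, did so in 7 of 54 (12.96%, 5.37 to 24.9).

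Within the intron peaks, no difference in canonical boxes by rank, length or position passed the threshold. A box was found in 47 of 290 peaks in first introns (16.2%) and in 73 of 430 in later introns (16.98%, Fisher's exact p = 0.839, adjusted p = 0.839). In introns of 1000 bp or more, 11 of 51 peaks held one (21.6%, 11.3 to 35.3), against 109 of 669 in shorter introns (16.3%, Fisher's exact p = 0.331, adjusted p = 0.675). Before the coding start, 9 of 63 peaks did (14.3%), against 111 of 657 in other introns (16.9%, Fisher's exact p = 0.724, adjusted p = 0.839). Of peaks with a box, 12 of 120 (10%) lay whole in the intron, against 69 of 600 (11.5%) without (Fisher's exact p = 0.752, adjusted p = 0.839). The subsets are small, so differences of several percentage points would not be detectable. The best score had a median of 11.35 bits in first introns, 10.63 in second introns and 10.25 in introns of rank 3 and later, which was not tested.

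Pairs of sites bear on the question of cooperative binding, since MIKC proteins can form tetramers that hold 2 boxes. In intron peaks, 413 held 1 site, 182 held 2, 24 held 3 or more and 103 held none. A pair of sites with 20 to 80 bp between the inner edges of their cores was found in 121 intron peaks (16.8%) and 486 other peaks (17.2%). The distances examined were 25, 34, 47 and 57 bp. The intron peaks had 4, 5, 0 and 1 such pairs out of 136, and the other peaks had 19, 15, 13 and 9 out of 569. The difference was smallest in p at 47 bp (two-sided Fisher's exact test, p = 0.0843, adjusted p = 0.337 over 4 distances). This test takes pairs and not peaks as units, and pairs from the same peak are not independent. The most frequent distances in intron peaks were 28, 44 and 52 bp, with 6 pairs each.

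The best-scoring pair at each distance that occurred is shown because it places both cores in 1 stretch, and the first core of the AT5G18840 pair lies across the 5′ end of its intron. AT5G18840 codes for a transporter of the major facilitator superfamily, PAKRP1 for a kinesin of the phragmoplast, and SEC15A for a subunit of the exocyst.
AT5G18840, intron 6, 25 bp, chr5:6284568-6284618: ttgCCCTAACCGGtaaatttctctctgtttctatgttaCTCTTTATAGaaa
PAKRP1, intron 1, 34 bp, chr4:8164564-8164623: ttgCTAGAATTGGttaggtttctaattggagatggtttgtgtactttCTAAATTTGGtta
SEC15A, intron 1, 57 bp, chr3:20981803-20981885: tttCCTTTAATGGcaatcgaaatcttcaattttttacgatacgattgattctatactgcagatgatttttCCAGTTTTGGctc

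A pair of canonical boxes was rarer still, with 2 or more in 5 intron peaks and 20 other peaks. Those with the highest scores were TTG2, MBD9, which codes for a methyl-CpG-binding domain protein, and the kinase gene NAK, with 183, 69 and 163 bp between the inner edges of the outer boxes. In TTG2 the first box, CCTAAAAAGG, lay in exon 1, and the second lay in intron 1. In MBD9 the boxes stood near either end of intron 3, of 105 bp, the second across its 3′ edge.
MBD9, intron 3, chr3:176159-176253: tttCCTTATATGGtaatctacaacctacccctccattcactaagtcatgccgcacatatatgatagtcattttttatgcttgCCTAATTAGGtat

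Clustering of intron peaks was measured from midpoint to midpoint. Another peak lay within 2000 bp of 97 intron peaks (13.4%) and of 420 other peaks (14.8%, two-sided Fisher's exact test, p = 0.375, adjusted p = 0.675). Within 1000 bp the shares were 5.68% and 8.375% (exact p = 0.0159, not adjusted), so that the call depends on the distance chosen. Of the intron peaks, 11 overlapped another peak of the list.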

How the data were processed

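The experiment was seq-DAP-seq of SEP3-AG(IAP1) in 3 replicates. Per the study's methods, the authors checked reads with FastQC, trimmed adaptors with NGmerge, mapped with bowtie2 to TAIR10 without organelles, removed duplicates with samtools rmdup, called peaks per replicate with MACS2 against input, joined replicates with MSPC, split peaks at sub-peaks and set each region to reach 200 bp from its maximum on either side. Bowtie2, SAMtools, MACS2 and the TAIR10 build are also named in the submitters' processing notes, with no version. The deposited list holds coordinates only and no other measurement. How peaks were called and joined decides which regions appear, and the fixed width of 400 bp limits how many sites each can hold.

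Sequence and genes came from the NCBI RefSeq copy of TAIR10, whose nuclear chromosomes hold every region. Coordinates count from 1. Exons of all transcripts of a protein-coding gene were merged, introns are the gaps between them, and ranks count from the 5′ end. The coding part is that of the transcript with the longest coding sequence. The palindromic matrix was fitted by expectation maximisation (30 iterations, 0 or 1 site per peak), started from the canonical boxes of the same training peaks, on the peaks of the 4 other chromosomes. Sites at least 10 bp apart were kept by score. Intron windows were centred on every 20th intron base outside peaks. Shares were compared with two-sided Fisher's exact tests, with Benjamini-Hochberg adjustment over 9 tests, with Clopper-Pearson 95% intervals for shares and exact Poisson intervals for densities. The steps were tested on simulated data. Software was matplotlib 3.10.9, pandas 2.3.3, scipy 1.17.1, numpy 2.4.6 and Python 3.11.15.

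The genes named were all MIKC genes with an intron peak, up to 5 of each other list by score, the 8 highest-scoring intron peaks, genes with 3 or more intron peaks, the 5 longest introns with a peak, up to 3 peaks with most canonical boxes, and the best pair at 25, 34, 47 and 57 bp. MIKC genes with an intron of 1000 bp or more and no intron peak were also named. The members, lists and tests were chosen with earlier results of these data known. Alternatives were other exon models, midpoint rules, box forms, thresholds, distances and length limits. Binding intensities and SEP3-AG peaks were not analysed here.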

Additional observations from a re-analysis of the deposited data

How the results depend on the processing

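Of 31 alternatives, 18 gave the same result, 6 reversed it, 6 moved it in size and 1 made it stronger. Only the Fisher comparisons have a side of the threshold, and the counts and density ratios were judged without a test. With exons of the longest coding transcript alone, 804 peaks were intronic, and 678 when those upstream of another gene were left out. Only 81 were intronic over their whole width. The difference in canonical boxes between intron peaks and other peaks was 0.825 percentage points, and became -1.24 with the looser box (C, C or T, 6 A or T, A or G, G), -0.395 with at most 1 mismatch and -0.980 with the 81 whole intron peaks. That in peaks with 2 or more sites was -1.82, and became 0.263 at 1 site per 1000 bp and 0.269 at 1 per 5000 bp. None of these differences passed the threshold. The share with another peak nearby differed by -1.41 points at 2000 bp and by -2.70 at 1000 bp, where it passed. The causes were not tested. The density ratio of first to later introns was 1.79, 1.80 with the longest coding transcript and 1.46 among introns of 400 bp or more. By distance from the gene start it was 1.30 under 500 bp, 2.14 from 1000 to under 2000 bp and 0.458 beyond, with 2 peaks in first introns there. By GC content, it was 1.12 under 28% and 1.104 from 28 to under 32%.

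No paired analysis was possible because the replicates were deposited as 1 combined list of a single group. For the same reason no replicate was left out. Without heights or counts, strong and weak peaks cannot be told apart, and binding below the authors' threshold is not seen.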

Other observations

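By the product names of the annotation, cytochrome P450 genes had 10 intron peaks, or 113 per Mb of intron (exact Poisson 95% interval 54.0 to 207), against 39.3 over all genes. CYP704A2 is one of them, with a site of 18.05 bits in an intron of only 75 bp. Kinase genes had 56 intron peaks, or 49.7 per Mb (37.5 to 64.5), and genes named as transcription factors 13, or 51.4 per Mb (27.4 to 88.0). Transporter genes had 16, or 41.1 per Mb (23.5 to 66.7), and peroxidase genes 3, or 52.05 per Mb (10.7 to 152). The name groups were chosen after the data were seen, and no test was made. Intron rank was not matched, and the 58.5 per Mb of first introns over all genes lies inside the P450 interval.

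The share of intron peaks with a canonical box varied by chromosome. It was 29 of 117 on chromosome 2 (24.8%, Clopper-Pearson 95% interval 17.3 to 33.6) and 13 of 131 on chromosome 3 (9.92%, 5.39 to 16.4), while other peaks had 14.7% and 15.75% there. The 2 chromosomes are the extremes of 5 and were chosen for this difference.

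At the midpoints of 19 intron peaks the annotation also has a noncoding RNA, a long noncoding RNA in 17 and an antisense RNA in 2.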
